A study of Mus musculus with 28 samples.

Results

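The genes described here restrain or report ERK signalling, and their H3K27ac was followed in mouse mammary epithelial cells undergoing TGF-β-induced EMT with and without ERK inhibition. The members are Dusp4, Dusp5, Dusp6, Spry1, Spry2, Spry4, Spred1, Spred2, Etv4 and Etv5, 10 of 22372 protein-coding genes. A peak was assigned to a member when its summit lay within 100000 bp of, and nearest to, one of that gene's start sites (mm9). Of 893719 peaks in 15 libraries, 1362 were assigned in this way, 320 of them at promoters (within 2500 bp of a start site) and 1042 further away (distal). Merging peaks that overlap between libraries gave 89050 regions, 126 of which belonged to the members, 17 at promoters and 109 distal.

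H3K27ac is an acetyl mark on histone H3 that is carried by active promoters and enhancers. In the RAS-RAF-MEK-ERK cascade, ERK switches on the transcription of its own inhibitors and of transcription factors that carry its signal onward. The Dusp genes encode phosphatases that remove the activating phosphates from MAP kinases, Sprouty and Spred proteins act upstream and limit the activation of RAS and RAF, and Etv4 and Etv5 are ETS transcription factors of the PEA3 group. The transcripts of these genes are widely used as readouts of ERK activity.

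The cells were NMuMG/E9, a subclone of the NMuMG mouse mammary gland line. Chromatin was sampled in 5 conditions with 3 libraries each: untreated cells (0h), cells given 2 ng/ml TGF-β for 4 or 24 hours together with the solvent DMSO (4h and 24h), and cells given TGF-β for the same times after 30 min with 25 µM of the MEK inhibitor UO126 (ERKi 4h and ERKi 24h). No inhibited sample without TGF-β was collected, so the inhibitor's effect on resting cells cannot be told apart from its effect on the TGF-β response. The labels do not say whether the 3 libraries of a condition came from separate cultures, so the p-values measure the spread between libraries. The unit used throughout is the normalized pileup, the number of fragments stacked at a peak's summit, recovered from the deposited fold enrichment and p-value and divided by a size factor for each library.

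Libraries held between 50445 and 69180 peaks, and their size factors ran from 0.777 to 1.37. Of the epithelial marker genes, 5 of 8 carried a promoter peak in every library (Cdh1, Krt8, Krt18, Krt7 and Ocln), Cldn4 carried one in 11 libraries, and Epcam and Esrp1 carried none. None of the 8 blood and endothelial markers showed a promoter peak, 1 of which (Spi1) was not found by that symbol in the annotation and could not be assessed. Of the 6 fat and muscle markers 4 carried none, while Pparg had a promoter peak in 14 libraries and Myog in 7. Libraries with the same replicate number deviated together in all 30 pairs from different conditions, so results whose call changes are also given with the replicate number as a block. The peak names of the first ERKi 4h library carry a number that breaks the order of the other 14 libraries.

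The chromatin at the members was mostly intergenic. Of the 126 regions, 85 had their summit between genes, 32 in an intron (4 of these in introns of another gene) and 9 in an exon. The regions were detected about as steadily as others: 31.7% were called in all 15 libraries, against 30.2% of all regions. The median width was 673.5 bp, against 591.5 bp. The 40 member regions called in every library, 12 promoter and 28 distal, entered the tests. The 2 Etv4 regions with the highest pileups did not, because at least 1 library had no peak there.

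The DNA at the summits of 5 regions on which the results turn is shown here, from the mm9 plus strand, 1 for a member, with the largest ERKi differences at 24h first and leaving out windows with untranslated exon sequence. Each window is 200 bases, and capitals mark the 20 bases around the summit. The Etv4 window lies in an intron 7.8 kb downstream of the start site, the Etv5 window in an intron 7.2 kb downstream, the Spry2 window between genes 93.6 kb downstream, the Spred2 window between genes 3.8 kb upstream and the Dusp5 window between genes 23.7 kb downstream.
Etv4 chr11:101638681-101638880: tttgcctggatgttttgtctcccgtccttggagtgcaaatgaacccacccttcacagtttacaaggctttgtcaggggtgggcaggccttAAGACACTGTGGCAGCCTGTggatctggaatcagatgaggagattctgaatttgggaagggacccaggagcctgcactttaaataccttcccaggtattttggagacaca
Etv5 chr16:22429307-22429506: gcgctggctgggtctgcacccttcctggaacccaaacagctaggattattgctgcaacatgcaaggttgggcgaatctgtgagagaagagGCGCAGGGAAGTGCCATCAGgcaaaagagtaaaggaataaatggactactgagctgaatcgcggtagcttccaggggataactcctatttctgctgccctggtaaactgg
Spry2 chr14:106202287-106202486: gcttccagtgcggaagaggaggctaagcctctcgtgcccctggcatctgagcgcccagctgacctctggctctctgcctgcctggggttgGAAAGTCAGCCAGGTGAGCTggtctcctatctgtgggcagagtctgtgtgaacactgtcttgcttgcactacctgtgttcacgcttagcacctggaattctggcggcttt
Spred2 chr11:19820482-19820681: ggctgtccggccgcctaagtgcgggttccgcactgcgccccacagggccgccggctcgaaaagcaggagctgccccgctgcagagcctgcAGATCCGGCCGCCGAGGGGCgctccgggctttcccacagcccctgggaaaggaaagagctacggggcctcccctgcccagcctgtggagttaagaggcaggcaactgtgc
Dusp5 chr19:53627171-53627370: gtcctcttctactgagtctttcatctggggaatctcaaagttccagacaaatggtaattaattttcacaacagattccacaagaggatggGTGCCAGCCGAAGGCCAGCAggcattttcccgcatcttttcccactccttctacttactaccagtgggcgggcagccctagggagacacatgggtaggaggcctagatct

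These windows were searched on both strands for 9 short motifs: ETS (CCGGAAGT and CAGGAAGT), AP-1 (TGANTCA), Capicua (TGAATGAA and TGAATGGA), RUNX (TGTGGTTT), SMAD (GTCTGNC), TEAD (GGAATGT) and FOX (TGTTTAC). None of the 5 windows held any of them, which says only that these letters are absent there. In windows of 300 bp at all summits, the AP-1 motif occurred in 13 of 126 member regions (10.3%) and in 10.1% of all 89050 regions, and the SMAD motif in 16 (12.7%) and 18.1%. Of the ETS motifs, CAGGAAGT occurred in 4 member regions (3.17%) and 3.42% of all regions, and CCGGAAGT in 1 (0.794%) and 0.592%. TGAATGGA occurred in 4 member regions (3.17%) and 1.27% of all regions, and TGAATGAA in 2 (1.59%) and 1.76%. The RUNX motif occurred in 5 member regions (3.97%) and 2.22% of all regions, TEAD in 3 (2.38%) and 4.63%, and FOX in 2 (1.59%) and 4.29%. Most of these counts are of 5 regions or fewer, and no test was made.

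ERK inhibition coincided with the largest H3K27ac differences at Etv4. The Etv4 promoter region (chr11:101645182-101646664, summit in a non-coding part of an exon) had normalized pileups of 93.2, 95.7 and 115 at 0h, 110, 111 and 98.3 at 4h, and 124, 127 and 145 at 24h. With ERKi the pileups were 28.2, 33.4 and 16.2 at 4h and 14.7 and 23.2 at 24h, and no peak was called in replicate 3 of ERKi 24h. Every inhibited library lay below every other library, with a wide gap between 33.4 and 93.2. In the limma fit over regions called in at least 8 libraries, which leaves out the library without a peak, the promoter fell 4.29-fold at 4h (SE 0.25 on the log2 scale, adjusted p = 0.000863) and 7.13-fold at 24h (log2 -2.83, SE 0.28, adjusted p = 3.11e-05). In that fit 0.178% of regions were called lower at 4h and 4.58% at 24h.

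The intronic Etv4 region 7.8 kb downstream (chr11:101637961-101639682), whose summit is shown above, followed the promoter. Its pileups were 46.6, 63.8 and 71.2 at 0h, 48.1, 47.7 and 43.2 at 4h, and 48.6, 74.2 and 62.7 at 24h. With ERKi they were 18.4, 24.7 and 13.2 at 4h, and at 24h no library had a peak. The difference at 4h was 2.54-fold (log2 -1.35, SE 0.27) and did not pass the adjusted threshold (limma, adjusted p = 0.0544), while no fit was possible at 24h. The summed pileup of all distal Etv4 peaks was 80.8, 176 and 138 at 24h and 9.55, 23.2 and 11.6 at ERKi 24h, a fall of 2.49 on the log2(sum + 10) scale (SE 0.51, limma, adjusted p = 0.00723).

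Etv5, its paralogue, differed less. The promoter region 0.2 kb downstream (chr16:22438913-22439728) had pileups of 106, 120 and 88.4 at 24h and 65.3, 100 and 31.8 at ERKi 24h, so the groups overlapped (log2 -0.81, SE 0.34, limma, adjusted p = 0.177). The neighbouring region 0.4 kb upstream had a log2 difference of -0.90 (SE 0.27, adjusted p = 0.0545). With the replicate block both fell (limma, adjusted p = 0.000491 and 0.000156). The distal Etv5 region with the highest mean pileup, 7.2 kb downstream (chr16:22428660-22429559), was called in the 3 libraries of 24h with pileups of 15.6, 17.1 and 20.6 and in none of the other 12. These values are low, and the smallest pileup of a called peak ranged from 1.46 to 12.9 between libraries.

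At the promoters of the remaining 8 members, the inhibited libraries ranged from wholly below the others to above them. The Spred2 promoter region (chr11:19824029-19826206) had pileups of 139, 137 and 118 at 4h and 146, 138 and 163 at 24h, against 80.6, 92.7 and 94.3 at ERKi 4h and 94, 106 and 77.5 at ERKi 24h. The inhibited libraries lay below all 9 others. The difference passed the threshold at 24h (1.62-fold, log2 -0.70, SE 0.16, limma, adjusted p = 0.0109) and, at 4h, only with the block (1.47-fold, log2 -0.56, adjusted p = 0.255 without and 0.00842 with it). Without replicate 3 of ERKi 24h the call at 24h was lost.

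The merged region at the Spry4 promoter has its highest summit nearest the neighbouring gene 9630014M24Rik and was assigned to it, so the Spry4 promoter is described by the 13 peaks whose own summits were nearest Spry4. At 4h their normalized pileups were 65.6, 82.2 and 47.8 without and 26.2, 35.8 and 21.3 with the inhibitor. At 24h they were 60.8, 90.1 and 65.8 without it, and 12.5 and 42.5 with it. No Spry4 promoter peak was called in the first 0h library or in replicate 3 of ERKi 24h. A peak with its summit nearer 9630014M24Rik would not be counted here. The pileups of called peaks in inhibited and uninhibited libraries did not overlap, and no fit was made because of the missing peaks. Ranked by fold enrichment among the peaks of their library, the groups overlapped. These percentiles were 73, 80.5 and 66.7 at 4h and 75.4, 70.4 and 66.5 at ERKi 4h. At 24h they were 68.9, 70.3 and 69.4, against 45.7 and 89.8 in the called ERKi 24h libraries.

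The promoters of Dusp4, Spred1 and Spry2 did not pass the threshold. The Dusp4 promoter region (chr8:35870441-35873524) had 246, 208 and 229 at 24h and 296, 269 and 248 at ERKi 24h, so that the inhibited libraries were the higher ones (log2 0.25, SE 0.13, limma, adjusted p = 0.317). Spred1 had 183, 178 and 210 at 24h and 197, 201 and 187 at ERKi 24h, with a log2 difference of 0.04 (95% interval -0.23 to 0.31). Spry2, in its intron 0.4 kb downstream, had 112, 112 and 106 at 24h and 86.6, 103 and 85.3 at ERKi 24h, with a log2 difference of -0.27 (95% interval -0.60 to 0.07). The highest Dusp6 promoter peak overlapped between the groups too (175, 161 and 196 against 126, 192 and 178). The Dusp6 region 0.8 kb downstream, in a coding exon, had 129, 120 and 118 at 24h and 67.6, 126 and 63.6 at ERKi 24h (log2 -0.58, SE 0.21, adjusted p = 0.11 in the fit that leaves out uncalled libraries). The Dusp5 promoter, at 113, 160 and 105 at 4h and 84.5, 138 and 71 at ERKi 4h, was highest in the second library of every condition. Its log2 difference at 24h of -0.53 passed only with the block (limma, adjusted p = 0.325 and 0.0016).

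**Figure D1:**
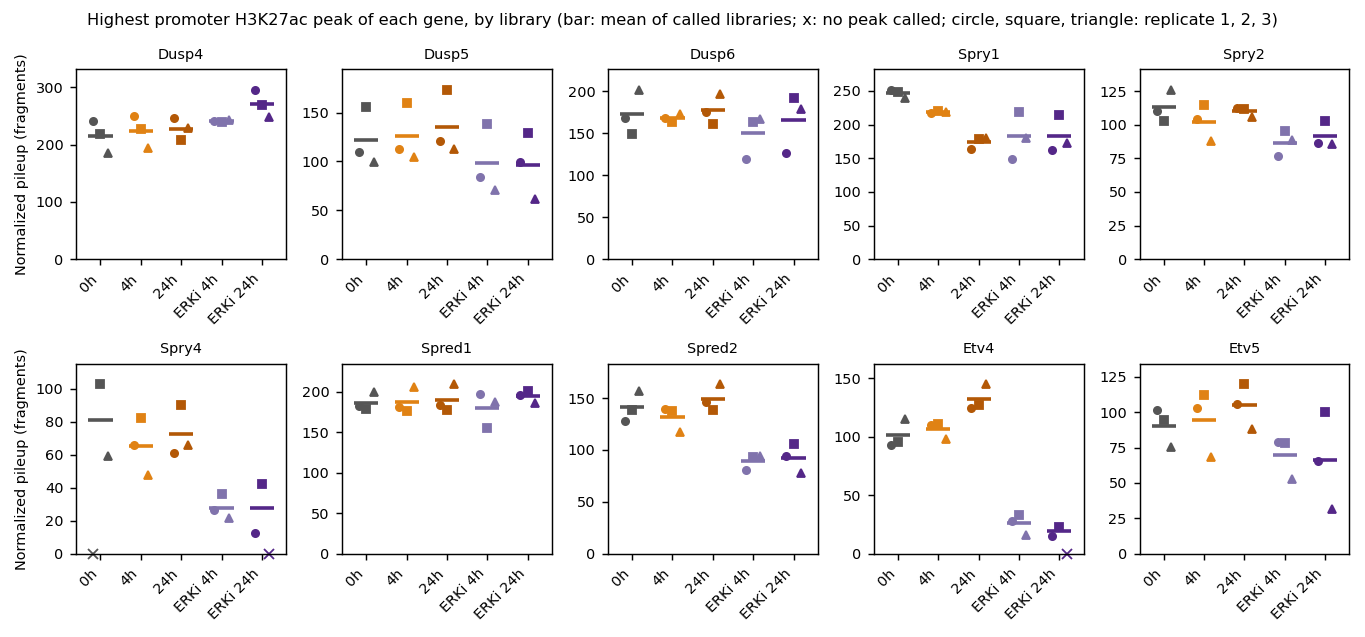
Normalized pileup of the highest promoter peak of each member (y axis, fragments) in the 15 libraries by condition (x axis), with the mean of the called libraries as a bar and a cross where no peak was called. Etv4, Spry4 and Spred2 are lower in the called ERKi libraries than in the called libraries of the other conditions, while Dusp4 and Spred1 are not.

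Among distal regions, 1 of Spry2, 1 of Spred2 and 1 of Dusp6 fell at ERKi 24h. The Spry2 region 93.6 kb downstream (chr14:106201246-106203152) had pileups of 72.8, 68.5 and 88.8 at 0h, 67.8, 84.4 and 85.3 at 24h, and 29.4, 41.2 and 30.2 at ERKi 24h. It fell 2.37-fold at ERKi 24h against 24h (log2 -1.25, SE 0.22, limma, adjusted p = 0.00214). At ERKi 4h it had 38.8, 55.6 and 46.7, below the 73.5, 57.2 and 67 of 4h by a narrow margin. A second Spry2 region 26.4 kb upstream (chr14:106321626-106322899) had 34.7, 42.2 and 51.4 at 24h and 10.3 and 14.7 at ERKi 24h, with no peak in the second library, and fell 3.43-fold in the fit that leaves out that library (limma, adjusted p = 0.00179). This second region was named after its values were seen.

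The Spred2 region 3.8 kb upstream (chr11:19819646-19820893) had pileups of 91.7, 81.5 and 97.5 at 0h, 99.7, 93 and 115 at 4h, and 119, 106 and 120 at 24h. With ERKi it had 68.9, 68 and 68 at 4h and 49.2, 68.2 and 48.8 at 24h, again below every uninhibited library. The fall at 24h was past the threshold (log2 -1.07, SE 0.17, limma, adjusted p = 0.00135).

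Dusp6 had 8 distal regions called in all libraries, between 61.1 and 12 kb upstream. The highest of them, 21456 bp upstream, did not pass the threshold in limma at ERKi 4h, at ERKi 24h or at 24h against 0h. The region 20 kb upstream (chr10:98705023-98707561) had pileups of 185, 155 and 160 at 4h and 188, 173 and 179 at 24h, against 117, 112 and 115 at ERKi 4h and 116, 140 and 143 at ERKi 24h. The 6 inhibited libraries lay below the 9 others. The fall at 24h was 1.36-fold (log2 -0.44, SE 0.13, limma, adjusted p = 0.0447) and was lost when any library other than replicates 2 and 3 of 4h was left out. At 4h the difference was 1.45-fold (adjusted p = 0.129, and 0.00221 with the block). All 9 Dusp6 regions had negative log2 differences at ERKi 4h (median -0.54) and 8 of 9 at ERKi 24h (median -0.39). A region 22.3 kb upstream, named after its values were seen, was called at 106, 118 and 135 at 0h, 104, 94.2 and 108 at 4h, and in none of the ERKi 4h libraries. It was called at 120, 113 and 121 at 24h and in 2 ERKi 24h libraries at 73.4 and 68.2 (log2 -0.74 over the called libraries, limma, adjusted p = 0.0225).

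The highest distal regions of the other members gave smaller or more variable differences. The intergenic Spred1 region 72.5 kb upstream (chr2:116873724-116875309) had 99.7, 103 and 98.3 at 4h and 36.9, 85.3 and 41.6 at ERKi 4h, groups that did not overlap but whose inhibited libraries spread widely (log2 -0.98, SE 0.29, limma, adjusted p = 0.313, and 0.000883 with the block). The intronic Dusp4 region 8.3 kb downstream (chr8:35877060-35879287) had 186, 141 and 185 at 24h and 126, 127 and 145 at ERKi 24h, with overlap (log2 -0.36, SE 0.16, limma, adjusted p = 0.215, and 0.012 with the block). The intronic Spred2 region 24.7 kb downstream had 117, 131 and 149 at 24h and 118, 130 and 128 at ERKi 24h, with a log2 difference of -0.07 (95% interval -0.40 to 0.25).

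**Figure D2:**
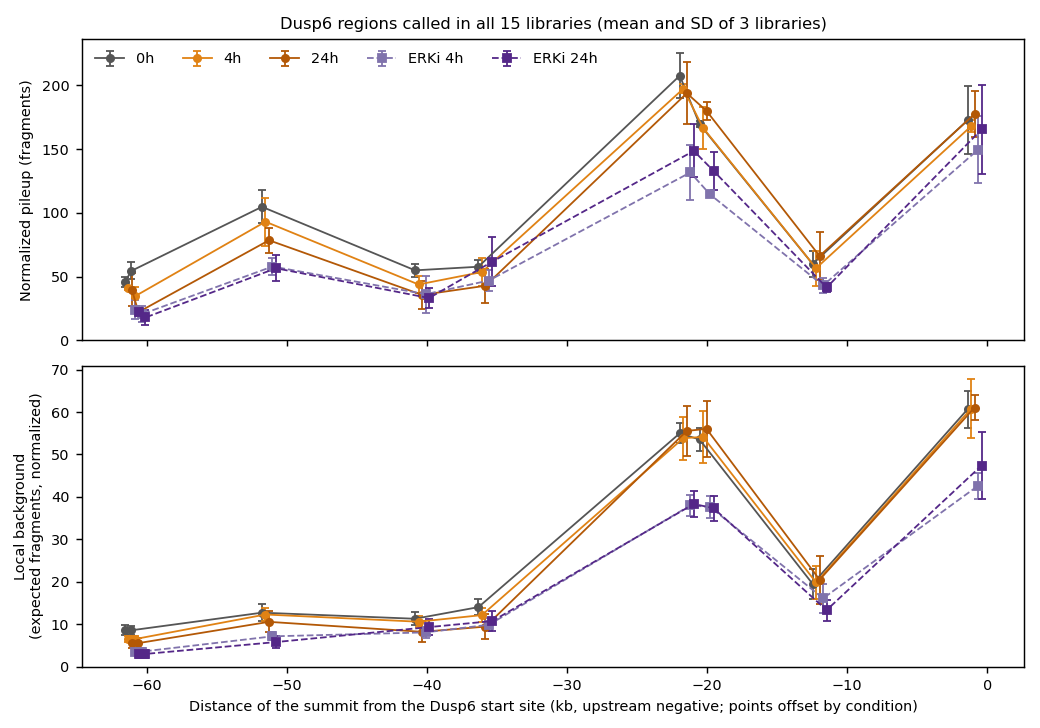
Normalized pileup (upper panel) and local background (lower panel, both in normalized fragments) against the distance of the summit from the Dusp6 start site in kb, as the mean and SD of 3 libraries for each condition. Both measures are lower in the ERKi conditions at the region 20 kb upstream, where the pileup lies between 112 and 143 in inhibited and between 155 and 188 in the other libraries.

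The peak caller's local background, the fragment count it expected from the surroundings of each summit, moved with the pileups. At the Dusp6 region 20 kb upstream it was 57.8, 48.8 and 61.6 at 24h and 34, 39.8 and 38.2 at ERKi 24h. Over the 40 member regions its median log2 change was -0.37 at ERKi 4h against 4h and -0.54 at ERKi 24h against 24h, against 0.03 and -0.07 over all regions. Fold enrichment divides the pileup by this background, and on that scale the Spry2, Spred2 promoter and Dusp6 calls above turned to values above 0. The differences reported here are therefore of fragments at the summit and not of the contrast between a summit and its flanks.

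By pileup, the member regions tested were mostly lower with ERKi. By fold enrichment they were not, with member medians of 0.03 at 4h and 0.08 at 24h. At ERKi 4h against 4h, 34 of 40 had a negative log2 difference (median -0.29), against 47.6% of all 26934 regions (median 0.01). None passed the threshold by limma, and 0.223% of all regions were called lower and 0.00743% higher. An unadjusted p under 0.05 was reached by 11, and by 5.5% of all regions. With the replicate block 10 were lower and 0 higher, against 3.24% and 0.839% of all regions. The 10 were 5 Dusp6 regions, the 2 Spred2 regions named above, the Spred1 region 72.5 kb upstream, the Dusp5 region 25.9 kb downstream and the Spry2 promoter region 2.0 kb upstream.

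At ERKi 24h against 24h, 31 of 40 member regions had a negative log2 difference (median -0.35), against 50.5% of all regions. Past the threshold, 4 fell and 0 rose, while 4.14% of all regions fell and 2.99% rose. The 4 were the Spry2 region 93.6 kb downstream, both Spred2 regions and the Dusp6 region 20 kb upstream. With the block 18 fell and 2 rose, against 14% and 13.3% of all regions. The 2 that rose with the block were the Dusp6 region 35.8 kb upstream and the Spry1 region 14.4 kb downstream. The difference between the ERKi effects at the 2 times passed in limma for 0 of the 40 regions and for 0 of all 26934 regions. Of the 40, 2 had an unadjusted p under 0.05. In limma with the block 0 of the 40 passed (7 at an unadjusted p under 0.05, lowest adjusted p = 0.0637). Of all regions 530 were then called higher and 529 lower. No share of all regions is given for the unadjusted counts.

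**Figure D3:**
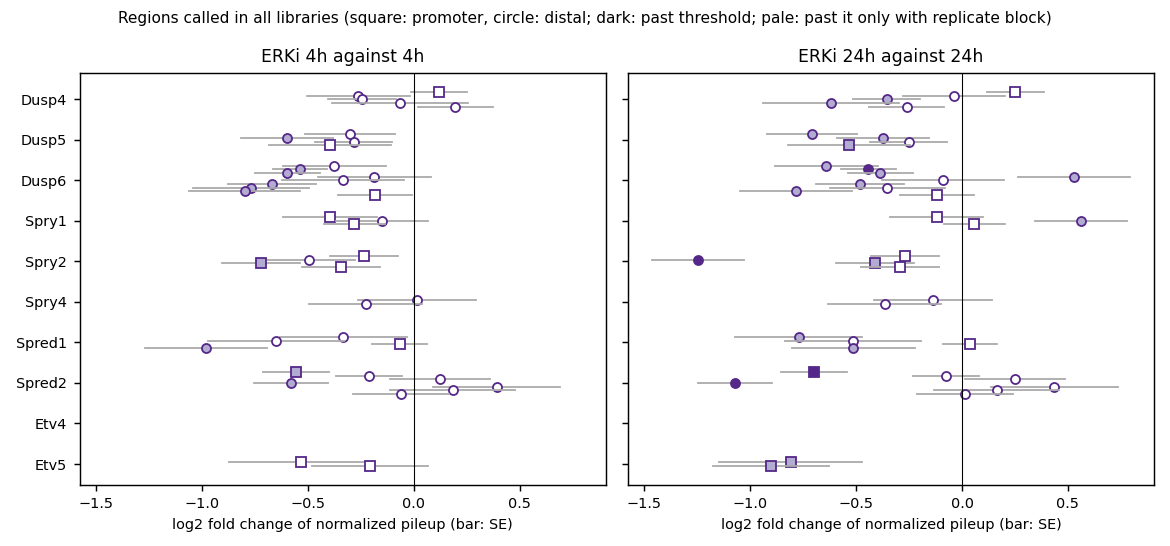
Log2 fold change of normalized pileup (x axis, with its SE) for the 40 member regions called in all libraries, by gene (y axis), at 4 and at 24 hours. Squares are promoter and circles distal regions, dark symbols pass adjusted p 0.05, pale ones only with the replicate block, and Etv4 has no region called in all libraries.

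Between 0h and the TGF-β time points, distal regions of several members moved in opposite directions. No time-matched sample without TGF-β was among those analysed, so its effect cannot be told apart from that of time or of DMSO. Near Dusp5 the region 25.9 kb downstream (chr19:53628906-53630877) rose from 53.1, 63.8 and 91 at 0h to 132, 126 and 160 at 4h and 217, 201 and 294 at 24h. The rise was 2.05-fold at 4h (log2 1.04, SE 0.22, limma, adjusted p = 0.00951) and 3.46-fold at 24h (log2 1.79, SE 0.22, limma, adjusted p = 2.45e-05). The call at 4h was lost without replicate 1 of 0h or replicate 3 of 4h. The local background at this region rose too, from a mean of 9.57 at 0h to 40.8 at 24h. By fold enrichment, 0 member regions were called higher and 3 lower at 24h against 0h. The region 23.7 kb downstream (chr19:53626985-53627644) rose from 34.9, 26 and 39.5 to 99.9, 100 and 137 at 24h, and had 63.1, 74.7 and 66.7 at ERKi 24h (log2 -0.71 against 24h, SE 0.21, limma, adjusted p = 0.0515, and 0.00146 with the block). Its 3 inhibited libraries thus lay between those of 0h and those of 24h.

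The region 17.5 kb upstream of Dusp5 (chr19:53585037-53586964), named after its values were seen, had pileups of 51.7, 76.8 and 102 at 0h, 33.2, 54.8 and 59.7 at 4h, and 21.7, 55.9 and 37 at 24h. The difference between 24h and 0h did not pass the threshold (limma on the called libraries, log2 -1.06, adjusted p = 0.0516). With ERKi a peak was called in 1 library of each time, at 16.1 and 14.7, below all 9 other libraries, and no test is given for these single values.

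The other regions that rose by 24h were the Dusp5 intronic region 2.7 kb downstream (2.36-fold), the Dusp4 region 25.2 kb upstream (2.80-fold) and the Spred2 regions 89.2 and 74.9 kb upstream (2.40-fold and 2.35-fold). The Spred2 region 89.2 kb upstream (chr11:19734307-19736178) went from 18.2, 21.3 and 28.5 at 0h to 59.1, 50.2 and 51.4 at 24h, and had 49.9, 52.8 and 59.7 at ERKi 24h. Its 24h values with and without the inhibitor overlapped, with a log2 difference of 0.02 (95% interval -0.46 to 0.49). The Dusp4 region 43.7 kb upstream, named after its values were seen, was called in no 0h library and at 129, 84.4 and 133 at 24h.

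The regions that fell by 24h belonged to Spry1, Spry4, Dusp6 and Spred1. The Spry4 regions 82.7 and 83.7 kb downstream (chr18:38677910-38678930 and chr18:38676437-38677723) fell 2.55-fold and 2.41-fold (limma, adjusted p = 0.00224 and 0.00265). The first had 135, 129 and 163 at 0h, 62.5, 35.4 and 77.1 at 24h and 41.1, 55.4 and 56.6 at ERKi 24h. The Spry1 region 14.4 kb downstream (chr3:37552373-37553862) had 109, 96.8 and 125 at 0h and 53.9, 49.1 and 49.3 at 24h, and fell 2.16-fold (limma, adjusted p = 0.00137). In the inhibited cells it stood at 58, 91.4 and 79.1, above the uninhibited values. The Spry1 promoter region (chr3:37538783-37539617) fell from 252, 248 and 239 to 164, 178 and 180, a 1.42-fold change (limma, adjusted p = 0.0204) that was lost without the first or second 0h or the first 24h library. The Dusp6 region 60.6 kb upstream fell 2.45-fold, and the Spred1 region 34.7 kb upstream fell 1.94-fold (limma, adjusted p = 0.0478), a call lost in 10 of 15 fits that left out 1 library.

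**Figure D4:**
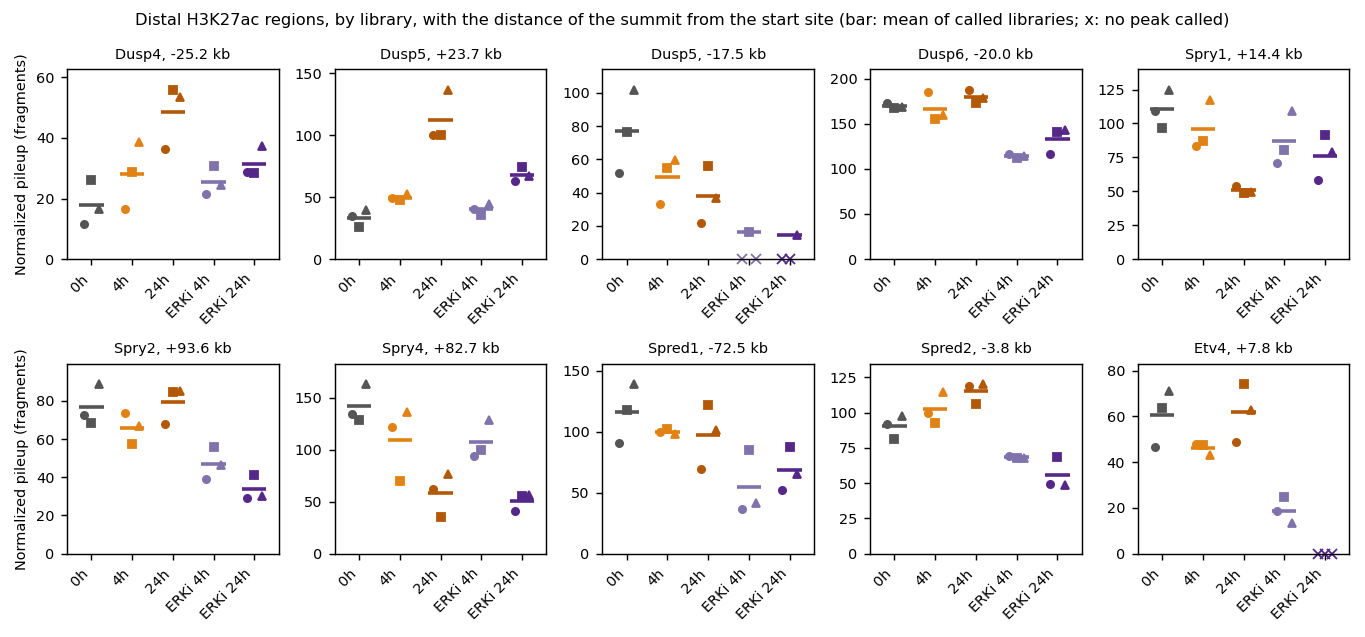
Normalized pileup (y axis, fragments) of 10 distal regions in the 15 libraries by condition (x axis), titled by gene and distance of the summit from the start site, with the mean of the called libraries as a bar and a cross where no peak was called. The Dusp5 region at +23.7 kb is highest at 24h, the Spry4 region at +82.7 kb is lower at 24h than at 0h, and the Etv4 region at +7.8 kb has no peak at ERKi 24h.

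In counts, at 4h against 0h 1 of 40 member regions rose and 0 fell, with 3.48% and 0.167% of all regions called, and with the block 7 rose and 1 fell (12% and 5.13% of all regions). At 24h against 0h, 6 rose and 6 fell, against 10.7% and 6.55% of all regions, and with the block 10 rose and 9 fell (18.7% and 17.2%). Against 0h, the inhibited cells had 0 regions higher and 8 lower at ERKi 4h (3.69% and 1.49% of all regions; 1 in all without replicate 1 of ERKi 4h, the library with the odd number) and 6 higher and 13 lower at ERKi 24h (11.3% and 8.52%). With the block these comparisons called 21 and 32 member regions in either direction, against 23.5% and 42% of all regions. The comparisons share the 0h libraries.

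Gain and loss of called peaks were also counted, over all member regions and so with the weaker ones. Of the 126 member regions, 10 were called in every 24h library and in no 0h library (4.91% of all 89050 regions were), and 2 in every 0h library and in no 24h library (2.07%). With ERKi, 4 were called in every 24h library and in none at ERKi 24h (1.21%), namely the Etv4 region 7.8 kb downstream, an Etv4 region 54.1 kb upstream, the Etv5 region 7.2 kb downstream and a short Dusp4 promoter region. The reverse held for 2 intronic Spred1 regions (1.49%), 7.8 and 14.9 kb downstream.

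Summed over its distal peaks, each member received a level in each library, tested as log2(sum + 10) over 9897 genes. Etv5 entered this test only through its 24h libraries, with sums of 15.6, 17.1 and 40.1 there and 0 in the other 12 libraries, so its calls are not counted below. Of the 9897 genes, 74 (0.748%) likewise had distal peaks in 1 condition alone. At 24h against 0h, 3 members rose: Dusp4 (log2 1.23, SE 0.19), Dusp5 (1.38, SE 0.23) and Spred2 (0.76, SE 0.22). Spry1 fell (-1.27, SE 0.31, limma, adjusted p = 0.00481). With the block Spry4 fell too (log2 -0.46, limma, adjusted p = 0.259 without and 0.0496 with it). Of all genes 23.8% rose and 8.89% fell, and 14.3% fell with the block. The Spred2 rise was lost without the first 0h library.

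At ERKi 24h against 24h, 3 members fell and none rose: Etv4, Spry2 (-1.86, SE 0.28, adjusted p = 0.000943) and Dusp5 (-0.98, SE 0.23, adjusted p = 0.0152), all by limma. Of all genes 4.73% fell and 3.98% rose. The Dusp5 sums were 768, 733 and 1049 at 24h and 407, 349 and 519 at ERKi 24h, and the call was lost without replicate 3 of 24h or replicate 2 of ERKi 24h. Spred1 (-0.84) and Spry4 (-0.70) passed only with the block (limma, adjusted p = 0.00753 and 0.0126), with which 11% of all genes fell. At ERKi 4h none passed (0.162% of all genes fell), and 3 of 10 had an unadjusted p under 0.05, as did 6.4% of all genes. Dusp5 and Dusp6 passed with the block (limma, adjusted p = 0.0127 and 0.05, the latter just under the threshold), with which 1.1% of all genes fell. At 4h against 0h no member passed by limma, and 5.17% of all genes rose. An unadjusted p under 0.05 was reached by 1 member and by 17% of all genes. With the block Dusp4 rose (log2 0.50, limma, adjusted p = 0.161 without and 0.0301 with it), as did 12% of all genes.

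**Figure D5:**
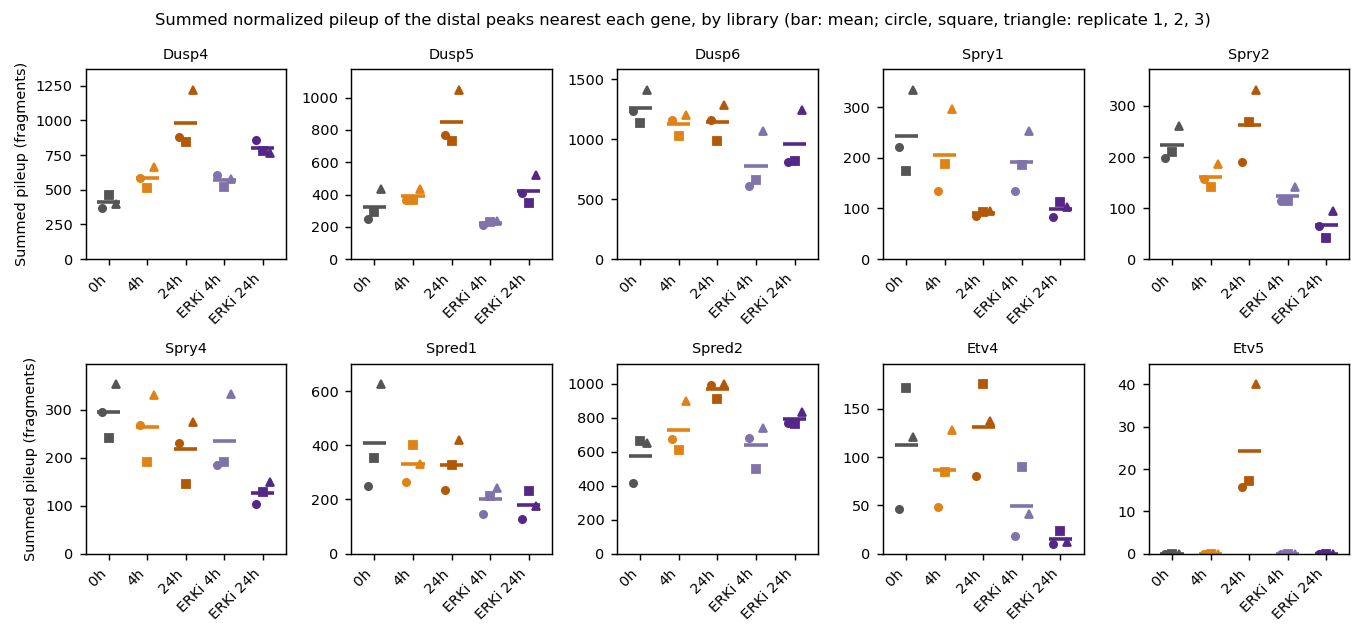
Summed normalized pileup of the distal peaks nearest each member (y axis, fragments) in the 15 libraries by condition (x axis), with the mean as a bar. Dusp5 is highest at 24h (733 to 1049) and lower at ERKi 24h (349 to 519), and Etv5 is at 0 in all libraries but those of 24h.

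At the promoter, a level could be tested for the 8 members with a peak in every library. Spred2 fell at ERKi 24h (log2 -0.70, SE 0.15, limma, adjusted p = 0.0324, with 0.751% of 9589 genes lower), a call that was lost without any one of 5 of the 24h and ERKi 24h libraries. With the block Dusp5 and Etv5 fell as well (limma, adjusted p = 0.00361 and 0.00197), as did 8.12% of genes. Spry1 at 24h against 0h had an adjusted p of 0.0644 (0.00172 with the block), and 0.876% of genes were lower in that comparison (6.84% with the block). At 4h and ERKi 4h no member passed by limma, with 0 and 2 of 8 at an unadjusted p under 0.05, beside 5.29% and 2% of all genes.

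Both times of inhibition were also compared at once with an exact two-sided permutation test within each time (400 arrangements, smallest possible p = 0.005). Promoters were ranked by pileup within their library as a percentile of all peaks, and a gene without a promoter peak was set to 0. The mean percentile was 84.2 with DMSO and 18.9 with ERKi for Etv4, 64.3 and 24 for Spry4, and 89.3 and 76.3 for Spred2. Each of these reached p = 0.005 in the exact test, as did Dusp4 in the other direction (98 and 99) and 2.27% of 11493 genes. Percentiles by fold enrichment were not tested. Their means at 4h and ERKi 4h were 56.7 and 55.5 for Spred2, 73.4 and 70.7 for Spry4, and 90.3 and 74.2 for Etv4. At 24h and ERKi 24h they were 54.5 and 67.7 for Spred2, 69.5 and 45.2 for Spry4, and 86.5 and 38 for Etv4. The Spry4 and Etv4 means at ERKi 24h include a library without a peak, set to 0. For the distal sums Dusp5 (620 and 325) and Spred1 (330 and 190) reached it, as did 3.84% of 9897 genes. No gene passed after adjustment over all genes, which this number of arrangements makes hard to reach (lowest member value 0.13).

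Other genes of the cascade were examined in the same way. Of 22 other ERK feedback and output genes, 19 had a testable distal level, and at 24h against 0h 6 were called higher, led by Dusp2 (log2 3.26), and 0 lower, beside the 23.8% and 8.89% of all genes. The Dusp2 sums were 0, 92.1 and 97.5 at 0h and 594, 317 and 477 at 24h, so the 0h library without a peak enlarges its log2 value. Among these 6, Rasa1 entered only through its 24h libraries (15.6, 16 and 16.4, with 0 in all others). At ERKi 24h against 24h Errfi1 (-1.44), an inhibitor of EGF receptors, fell and Dusp14 (0.97) rose, beside 4.73% and 3.98% of all genes. Rasa1 was called lower too (-1.38), again only through its 24h libraries. At the promoter the ERK-stabilised AP-1 factor Fosl1 was the only 1 of 17 that fell at ERKi 24h (log2 -1.71, SE 0.13, limma, adjusted p = 4.72e-06), beside 0.751% of all genes. Of 17 genes of the Ras-ERK cascade itself, 12 had a testable distal level, and at ERKi 24h only Araf fell (-1.07), beside 4.73% of all genes. None of 17 promoters passed by limma in any of the 4 comparisons.

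The distal levels of the members did not share a single course over the 15 libraries. The Pearson r of each gene with the mean of all 10 ran from 0.12 for Spry1 and 0.25 for Dusp4 to 0.84 for Spry2, which is itself part of that mean. Each member was centred and scaled for the mean, so Etv5, with distal peaks at 24h alone, weighs as much as the others. Among 9887 other genes the closest to the mean were Sox9 (r = 0.95), Gm17555 (r = 0.95) and Lrig1 (r = 0.95). These are descriptions over libraries that share conditions and depth.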

How the data were processed

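H3K27ac ChIP-seq was analysed in 15 libraries of NMuMG cells, and 10 RNA-seq and 3 input samples were not analysed here. Per the study's methods, the authors aligned reads to mm9 with bowtie, called peaks in each library with MACS2 at default settings and deposited peak lists. Whether a control was used at peak calling is not given in the sources used here. The deposited columns used were the fold enrichment (a ratio over the local background), the −log10 p and the −log10 q. From the first 2 columns the whole-number pileup and the local background of each peak were solved (all but 25 of 893719 peaks within 0.005), and pileups were scaled by median-of-ratios size factors. Read depth is not stated in the files, so precision is judged from the spread between libraries. The deposited score column, which the authors' peak caller wrote as a rescaled −log10 q, was not used.

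Peaks were assigned with GENCODE vM1 protein-coding start sites (mm9), and regions were merged over libraries. Levels were compared with limma 3.58.1 in R 4.3.3, all conditions in one fit, with Benjamini-Hochberg adjustment over all regions or genes and a threshold of 0.05. Distal sums needed a peak in at least 3 libraries, and a pseudocount of 10 was added. The tests were checked on simulated data that held no effect of the replicate number.

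Replicate numbers come from the labels. Same-numbered libraries of different conditions correlated above 0.1 in all 30 pairs (lowest 0.33), so the replicate block is given as an alternative. All 10 members were described, with their highest promoter and distal regions and up to 3 distal regions past the threshold. For the highest distal Dusp6 region only the lack of a call is given, without its pileups. Every other region given with a position was chosen after its values were seen. Members, lists, the pileup as measure and the promoter width were chosen with earlier results of these data known. Alternatives were fold enrichment, −log10 p, quantile normalization, stricter peaks, other promoter widths, reaches and pseudocounts, and each library left out. The names Spry3 and Spi1 (2 list genes) were not found in the annotation.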

Additional observations from a re-analysis of the deposited data

How the results depend on the processing

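The number of member regions called depended on the measure and on the replicate block. With the replicate block in the fit the calls went from 1 to 8 (4h against 0h), 12 to 19 (24h against 0h), 0 to 10 (ERKi 4h against 4h), 4 to 20 (ERKi 24h against 24h), 8 to 21 (ERKi 4h against 0h) and 19 to 32 (ERKi 24h against 0h). Blocking changed the distal level calls (here with Etv5) from 0 to 1 at 4h, 5 to 6 at 24h, 0 to 2 at ERKi 4h and 4 to 6 at ERKi 24h. It changed the promoter level calls from 0 to 1 at 24h and from 1 to 3 at ERKi 24h, and ended no call of a single region or gene. In the permutation test, 6 of 20 pairs of member and measure reached the smallest possible p without the block and 11 with it. The block leaves fewer arrangements, so its smallest p is higher and easier to reach, and these counts cannot be compared. No pair passed after adjustment in either form of the test. With fold enrichment in place of the pileup the same region comparisons called 0, 3, 0, 2, 0 and 7 regions (the 3 at 24h against 0h all lower and the 2 at ERKi 24h against 24h both higher), with no promoter level called at ERKi 24h. Of all 26934 regions, fold enrichment called 576 higher and 663 lower at 24h against 0h. It called 145 higher and 186 lower at ERKi 24h against 24h, and 979 and 1280 at ERKi 24h against 0h. Stricter peaks (−log10 q of at least 10), which leave fewer regions to test, gave 5, 3 and 9 calls at 24h, ERKi 4h and ERKi 24h against 0h. Of the 17594 regions they left, 1059, 257 and 1256 were called higher and 502, 100 and 895 lower. The −log10 p gave 2 calls at ERKi 4h against 0h (605 of 26934 regions higher and 206 lower). At ERKi 24h against 24h it called 1 member region higher and 2 lower, beside 622 and 659 of all regions. Regions called in at least 8 libraries gave 1 at ERKi 4h and 7 at ERKi 24h, all lower, beside 0.178% and 4.58% of all regions called lower. The local background, added after seeing the data, gave 2, 19, 10 and 16 calls at 4h against 0h, 24h against 0h, ERKi 24h against 24h and ERKi 4h against 0h. Of all 26934 regions it called 686, 3199, 979 and 875 higher and 75, 2623, 1293 and 560 lower in these comparisons. Counting distal peaks, again with Etv5 among the genes tested, gave 3 calls at 24h and 1 at ERKi 24h, against 5 and 4 by summed pileup. Of all 9897 genes 1258 were then called higher and 373 lower at 24h, and 158 and 133 at ERKi 24h. A reach of 50 kb, with Etv5 tested as well, gave 4 distal level calls at 24h, beside 2114 of 9372 genes higher and 824 lower. At ERKi 24h that reach gave 3, beside 383 genes higher and 419 lower. A narrower promoter (1000 bp before to 100 bp after the start site) and summed promoter pileups left 0 promoter calls at ERKi 24h.

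Signs turned only with fold enrichment. At ERKi 24h against 24h the log2 differences became 0.057 (Dusp6 20 kb upstream), 0.22 (Spred2 promoter region), 0.26 (Spred2 promoter level) and 0.0456 (Spry2 93.6 kb downstream). At 24h against 0h they became 0.018 (Spry4 83.7 kb), -0.24 (Dusp5 23.7 kb) and -0.19 (Dusp5 25.9 kb). At ERKi 4h against 0h they became 0.18 (Dusp6 61.1 kb) and 0.27 (Spred1 72.5 kb). At ERKi 24h against 0h they became 0.25 and 0.091 (Dusp6 61.1 and 51.3 kb), 0.0147, 0.11 and -0.30 (Spred2 3.8 kb, promoter and 37.9 kb), 0.0729 (Spry4 82.7 kb), -0.32 (Dusp5 23.7 kb) and 0.079 (Spred1 34.7 kb). The local background given in the report enters this measure as its divisor.

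With each library left out in turn, the member regions called ranged from 0 to 1 (4h against 0h), 10 to 12 (24h against 0h), 0 to 1 (ERKi 4h against 4h), 2 to 5 (ERKi 24h against 24h), 1 to 9 (ERKi 4h against 0h) and 14 to 20 (ERKi 24h against 0h). The ERKi 4h against 0h count was 1 without the first ERKi 4h library and 5, 4 and 3 without replicates 1, 2 and 3 of 0h. The ERKi 24h against 24h count was 2 without replicate 3 of ERKi 24h. Distal level calls, here with Etv5 among the genes tested, ranged from 4 to 5 at 24h and from 3 to 4 at ERKi 24h. With all libraries these counts were 5 and 4. Promoter level calls ranged from 0 to 1 at 24h and at ERKi 24h. A lost peak cannot be told apart from one below the detection limit of its library.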
